A study of Mus musculus with 38 samples.

Results

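Bcl2l1, Mcl1, Bid and Bak1 are 4 genes of the Bcl2 family, and they were followed here in mouse spleen after a low dose of X-rays. Bcl2l1 and Mcl1 protect cells from death, whereas Bid and Bak1 promote it. The 4 genes were chosen by name, as rows whose RefSeq accession belongs to one of them, and each had 1 probe, so that they make up 4 of the 6512 genes named on the array and 4 of its 21618 distinct probes. All 4 probes passed the minimum of values asked for below and were among the 14513 probes tested.

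Spleen RNA came from male mice of 6 inbred strains. They were aged 10 to 14 weeks by the labels and 8 to 10 weeks by the study's methods. The mice were either exposed in the living animal to 10 rad (10 cGy) of X-rays or sham-exposed, and their spleens were taken 3.5 h later. Each of 38 two-colour arrays carried RNA of 1 irradiated and 1 control mouse. The strains are named as in the labels: A/J (8 arrays), B6.C (8), BalbxJ (8, called Balb/C in the study's methods), BI6Jx (4, C57Bl6/J), C3H (6, C3H/HeJ) and DBA/2J (4). The irradiated RNA carried the dye Cy5 on 19 arrays and Cy3 on 19, split evenly in every strain. By the study's methods each pair of mice was hybridised in both orientations, but the labels do not show which arrays share a pair. The minimum of pairs per strain that the methods state would need more than the 4 arrays that BI6Jx and DBA/2J have. The labels name no mutation or drug in any group, and 1 dose, 1 time and 1 sex were studied.

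Proteins of the Bcl2 family control whether the outer membrane of the mitochondrion stays intact. Bak1 sits in that membrane and, once active, forms pores that let cytochrome c out, which starts the caspase cascade. Bid is a BH3-only protein that is cut by caspase-8 and then activates Bak1 and its relative Bax, and Bcl2l1 (Bcl-xL) and Mcl1 hold these killers in check. Lymphocytes, the main cells of the spleen, are sensitive to radiation and depend on Mcl1 to live, while Bcl2l1 is known for keeping maturing red cells and platelets alive.

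The deposited value of a spot is a signed number, and no source used here gives its scale, its log base or which dye is divided by which. Arrays were centred on their medians, and values of arrays with irradiated RNA in Cy3 had their sign turned. If Cy5 is the numerator, a positive turned value means more signal in the irradiated mice, and if Cy3 is, it means less, so sides are given here as positive or negative and not as higher or lower expression. The strain value is the average of the Cy5 mean and the turned Cy3 mean of a strain. In whole spleen, fewer cells of a type and less RNA per cell cannot be told apart.

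Facts of the whole set bear on all values below. Arrays held values for 10941 to 19860 probes and had medians of -3.16 to 3.95 before centring. Arrays 50 and 53 (B6.C) and array 97 (BI6Jx) stood apart: each correlated with an r under -0.3 with other arrays of its own orientation, down to -0.413, -0.449 and -0.658, and every pair under that limit held at least 1 of the 3. Their direction is unsettled, and results are given with them turned or left out where that matters. The table holds 1 value for both dyes of a spot, so marker levels of spleen cells could not be read. The 7 B cell markers looked for all had values, on 26 to 38 arrays each. Of 13 listed markers of exocrine pancreas 9 had values too, on 2 to 37 arrays, so having a value does not tell the tissue. The 8 of these that were tested were all negative on average over strains, with a median of -0.575. By limma, 5 had an unadjusted p under 0.05 and 0 an adjusted p under 0.05.

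The probe of Mcl1 and that of Bid gave values on all 38 arrays, that of Bak1 on 34 and that of Bcl2l1 on 27. In the mouse assembly GRCm38.p6 the genes lie at chr2:152758732-152833803 (Bcl2l1), chr3:95656944-95663179 (Mcl1), chr6:120893119-120917062 (Bid) and chr17:27019812-27028627 (Bak1). Where in a transcript each probe lies was not analysed here.

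Promoter sequences are shown for Bcl2l1 and Mcl1, because the values of these genes moved together over arrays (below). Each window of 300 bases, from RefSeq on GRCm38.p6, crosses a transcript start of the promoter table and lies mostly before that start, written 5′ to 3′ on the gene's strand, with motif matches in capitals. For Bcl2l1, which has 3 listed starts, the one shown is that with a match, at chr2:152831679-152831978 on the minus strand, and for Mcl1 the window is chr3:95658471-95658770 on the plus strand. Both windows lie inside the gene intervals given above, so the starts they cross are not the outer ends of those intervals.
Bcl2l1: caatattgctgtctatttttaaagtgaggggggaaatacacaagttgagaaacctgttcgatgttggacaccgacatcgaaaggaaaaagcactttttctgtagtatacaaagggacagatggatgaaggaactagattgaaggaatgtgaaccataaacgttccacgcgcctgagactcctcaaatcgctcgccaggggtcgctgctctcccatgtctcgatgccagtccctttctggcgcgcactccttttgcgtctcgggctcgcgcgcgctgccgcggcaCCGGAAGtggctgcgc
Mcl1: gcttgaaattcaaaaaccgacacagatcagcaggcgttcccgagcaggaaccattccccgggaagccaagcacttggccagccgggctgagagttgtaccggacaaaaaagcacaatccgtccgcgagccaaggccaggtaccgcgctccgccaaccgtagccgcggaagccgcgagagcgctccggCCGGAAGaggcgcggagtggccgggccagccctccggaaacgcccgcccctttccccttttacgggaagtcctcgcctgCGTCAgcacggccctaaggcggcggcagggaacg
Both windows held the Ets core CCGGAAG once, and 8.86% of the 32851 promoters of this length held it. The Bcl2l1 window was picked from 3 for its match, so that share per window is no measure of how rare its match is. The Mcl1 window also held the CRE core TGACG, on the reverse strand, as did 20.8% of all. On both strands of the windows of all 4 genes, no match was found to the TATA box TATAAA (13.6% of all promoters), the GAS element TTCNNNGAA (8.30%), the full CRE TGACGTCA (1.79%, which contains the core), the p53 decamer (8.36%) or the CArG box (1.63%). The Bid window, the Bak1 window and the other 2 windows of Bcl2l1 held none of the 7 motifs. A match is a description of the letters only.

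Over the 6 strains the survival genes lay on the positive side on average and the death genes on the negative side, but none of the 4 passed the test. Bcl2l1 averaged 0.440 ± 1.05 (SD, n = 6 strains) and Mcl1 0.320 ± 0.614, each with 4 of 6 strains positive. Without array 34 (DBA/2J) the mean of Mcl1 was 0.190. The positive side of both survival genes came from the Cy5 arrays. On the Cy3 arrays alone, the mean over strains was -0.505 for Bcl2l1 and -0.432 for Mcl1. Earlier results of these data were known when the 4 genes were chosen. Bid averaged -0.306 ± 0.191 with 0 of 6 strains positive, and Bak1 -0.374 ± 0.358 with 1 of 6 positive. The adjusted p (limma, Benjamini-Hochberg, 14513 probes) was 0.621 for Bcl2l1, 0.585 for Mcl1 and 0.567 for both Bid and Bak1. No probe of the whole array passed at an adjusted p under 0.05 (0 of 14513, 0%), and the 0 of 4 called here is to be read against that.

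Without adjustment, the p of limma was 0.0276 for Bid, 0.0322 for Bak1, 0.216 for Bcl2l1 and 0.164 for Mcl1. An unadjusted p under 0.05 was found for 1191 of all tested probes (8.21%). The exact sign-flip permutation test over 6 strains, two-sided with 64 arrangements, gave 0.03125 for Bid, the smallest p it can give, 0.0625 for Bak1, 0.3125 for Mcl1 and 0.344 for Bcl2l1. Strain values of the same sign in all 6 strains were found for 4.27% of tested probes. Only Bid among the 4 genes was one of these. Against the other probes the mean of Bcl2l1 was far from 0, since 92.4% of tested probes had a smaller absolute mean. Its SD over strains was larger than its mean, however. That mean also rested on only 27 arrays, with 1 array per orientation in DBA/2J.

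**Figure D1:**
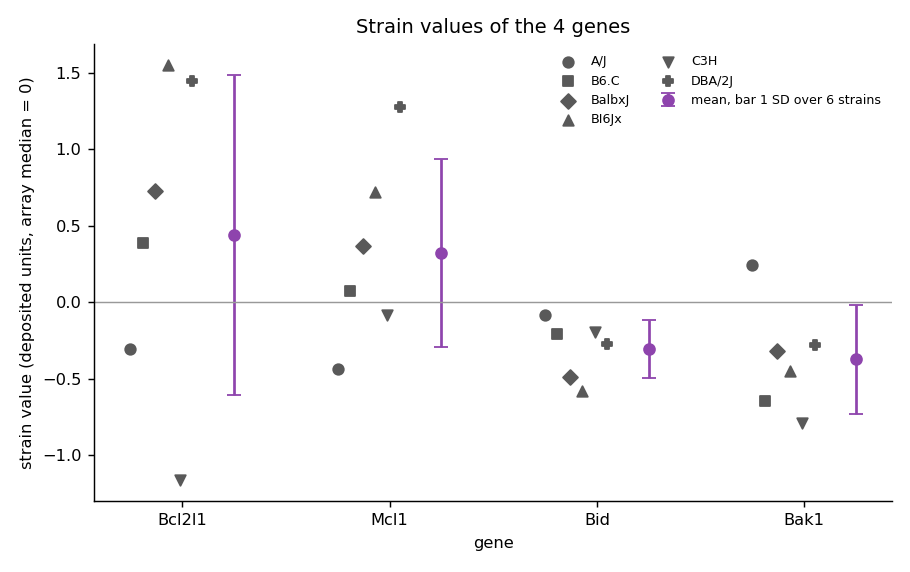
Strain values of the 4 genes on the vertical axis (deposited units, array median at 0), with 1 grey symbol per strain and the mean with 1 SD over 6 strains in violet. The 6 values of Bid lie below 0 with an SD of 0.191, whereas those of Bcl2l1 spread from -1.16 to 1.55.

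Bcl2l1 encodes the long survival protein Bcl-xL, and a short death-promoting form arises from the same gene by splicing, which a single probe need not separate. Its strain values were, from low to high, -1.16 in C3H, -0.305 in A/J, 0.387 in B6.C, 0.726 in BalbxJ, 1.45 in DBA/2J and 1.55 in BI6Jx. The gap of 0.860 between C3H and A/J was the only one between neighbours that was larger than the SD over arrays of both strains (0.688 and 0.664), and the others were smaller than the SD of at least 1 of their strains. In C3H, 5 of 6 turned values were negative, from -1.78 through a median of -1.40 to 0.0387. In BI6Jx the 3 values were all positive, at 2.71 and 3.05 on the Cy5 arrays and 0.222 on array 97 in Cy3, whose direction is unsettled.

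In BalbxJ the values of Bcl2l1 are given by dye. The 3 Cy5 arrays gave 1.23, 2.09 and 4.98 and the 4 Cy3 arrays, after turning, -0.681, -0.697, -1.31 and -2.56. Before turning all 7 values were positive. In C3H the values were 0.0387, -0.764 and -1.39 in Cy5 and -1.41, -1.68 and -1.78 in Cy3 after turning. How many of all probes differ so by dye was not counted, so this cannot be called particular to Bcl2l1. In DBA/2J only 1 array of each orientation had a value, 3.27 in Cy5 and -0.375 in Cy3. A/J had 3 values, 0.129 in Cy5 and -0.302 and -1.17 in Cy3. The 6 values of B6.C ran from -0.531 to 1.85 with a median of 0.230, and 3 of them were positive.

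Mcl1 encodes a short-lived survival protein whose level depends on steady synthesis. Its strain values were -0.439 in A/J, -0.0833 in C3H, 0.0710 in B6.C, 0.370 in BalbxJ, 0.720 in BI6Jx and 1.28 in DBA/2J. Every gap between neighbours in this order, 0.154 to 0.559, was smaller than the SD over arrays of both strains. The Cy5 arrays of DBA/2J gave 4.01 and 0.908 and its Cy3 arrays 0.680 and -0.481, so 3 of 4 were positive. The 4 values of BI6Jx were 2.56 and 1.96 in Cy5 and 0.402 and -2.04 in Cy3, with 0.402 on array 97, whose direction is unsettled.

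In C3H the 3 Cy5 arrays gave 0.334, 0.833 and 1.21 for Mcl1, and the 3 Cy3 arrays gave -0.534, -1.04 and -1.30 after turning. All 6 were thus positive before turning. How many of all probes differ so by dye was again not counted, so this cannot be called particular to Mcl1. The 8 values of BalbxJ ran from -0.818 to 3.79 with a median of -0.265. The highest, on array 36, carried the strain's positive value: without that array the response in the within-strain fit was -0.0436, against 0.370 with it. Leaving out the same array moved Bcl2l1 in BalbxJ from 0.558 to -0.0990 in that fit. The 8 values of A/J ran from -1.14 to 0.169 and those of B6.C from -1.29 to 1.05, with 4 of 8 positive in each.

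Bid encodes the BH3-only link between death receptors and the mitochondrion, and it had the smallest SD over strains of the 4 genes. Its strain values were -0.582 in BI6Jx, -0.493 in BalbxJ, -0.272 in DBA/2J, -0.210 in B6.C, -0.198 in C3H and -0.0828 in A/J. All gaps between neighbours, 0.0122 to 0.221, were smaller than the SD over arrays of both strains. In BalbxJ the 4 Cy5 arrays gave -0.375, -0.493, -0.652 and -1.09 and the 4 Cy3 arrays -0.299, -0.324, -0.331 and -0.375, all 8 on the negative side. Of the tested probes with a value on all 8 arrays of BalbxJ, 1.27% had the same sign on all of them. The 4 values of BI6Jx were negative too, at -0.287 and -0.852 in Cy5 and -0.200 and -0.989 in Cy3. A shared sign, in 1 direction or the other, was found for 8.18% of probes measured on its 4 arrays. The value of -0.989 was on array 97, whose direction is unsettled, and with that array turned the 4 values would not share a sign.

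In the other strains the values of Bid fell on both sides of 0. DBA/2J gave 0.694 and -0.165 in Cy5 and 0.0183 and -1.63 in Cy3. The 6 values of C3H ran from -1.05 to 0.475 with 2 positive, and the 8 values of B6.C from -1.20 to 1.44 with 3 positive. In A/J 5 of 8 values were positive, from -1.58 through a median of 0.205 to 0.927, although the strain value was below 0. Over all arrays Bid was negative on 26 of 38.

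Bak1 encodes the pore-forming protein itself. Its strain values were -0.790 in C3H, -0.644 in B6.C, -0.448 in BI6Jx, -0.323 in BalbxJ, -0.281 in DBA/2J and 0.241 in A/J. The widest gap between neighbours, 0.522 between DBA/2J and A/J, was larger than the SD over arrays of A/J (0.439) and smaller than that of DBA/2J (0.705). A/J was the only strain on the positive side, with 6 of 8 values positive, from -0.347 through a median of 0.132 to 1.12. C3H had the lowest strain value through array 27, at -4.29, while its other 4 values were -0.362, -0.0824, 0.0957 and 0.116. Without array 27 the mean of Bak1 over strains was -0.252.

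In B6.C the values of Bak1 ran from -2.03 to 0.748 with 2 of 8 positive, and the lowest was on array 53, whose direction is unsettled. In BI6Jx they were 0.00791 and -0.275 in Cy5 and 0.319 and -1.85 in Cy3, and the last was on array 97. With arrays 50, 53 and 97 turned, the mean of Bak1 over strains came to -0.107, and with them left out to -0.244. BalbxJ gave 5 values, -0.518 and -0.616 in Cy5 and 0.0260, -0.0523 and -0.209 in Cy3, and DBA/2J gave -0.148 and -1.08 in Cy5 and 0.607 and -0.508 in Cy3.

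**Figure D2:**
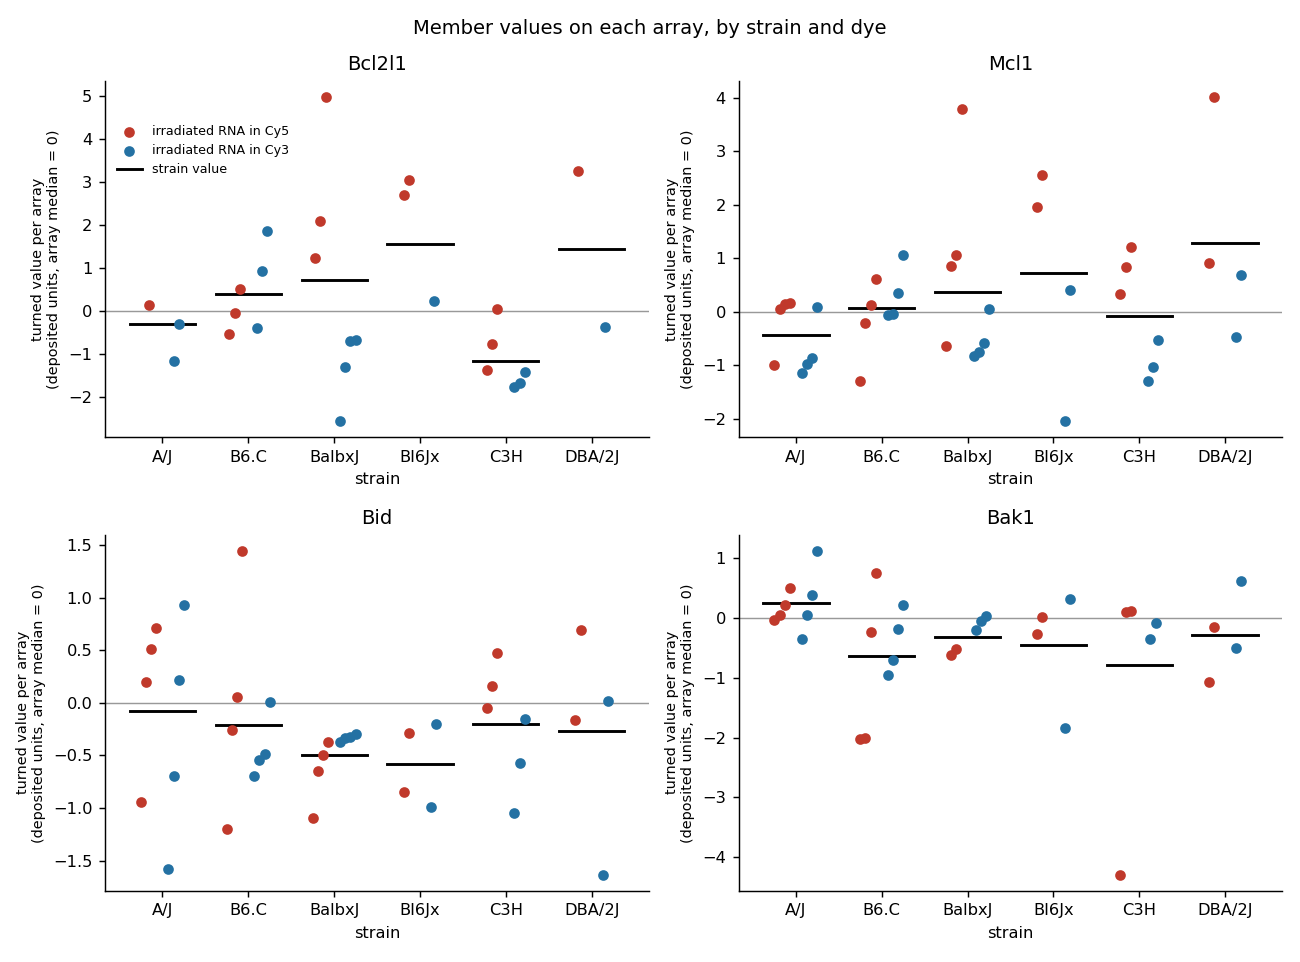
Turned value of each gene on each array (vertical axes, deposited units, array median at 0) by strain, with irradiated RNA in Cy5 in red and in Cy3 in blue, and the strain value as a black line. Red points of Bcl2l1 and Mcl1 lie above blue ones in BalbxJ and C3H with few exceptions, all 8 points of Bid in BalbxJ lie below 0, and 1 point of Bak1 in C3H lies at -4.29.

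The response within each strain was tested by limma over all 38 arrays with a dye term. None of the 24 combinations of gene and strain passed at an adjusted p under 0.05. In the same fits the share of all tested probes called was 0% in A/J, BalbxJ and DBA/2J, 0.186% in B6.C, 0.0345% in BI6Jx and 0.51% in C3H. An unadjusted p under 0.05 was found in 3 of them, 0.0226 for Mcl1 in DBA/2J (1.28 ± 0.536 SE, 4 arrays, adjusted p = 0.759, and a response of 0.549 without array 34), 0.0330 for Bcl2l1 in BI6Jx (1.71 ± 0.755 SE, 3 arrays, adjusted p = 0.765) and 0.0381 for Bcl2l1 in C3H (-1.16 ± 0.531 SE, 6 arrays, adjusted p = 0.381). Of the 14513 tested probes, an unadjusted p under 0.05 was found for 61 in A/J, 837 in B6.C and 1203 in BalbxJ. The counts were 927 in BI6Jx, 1737 in C3H and 900 in DBA/2J. Arrays that share mice are not independent, and these p-values are too small if such arrays deviate together.

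Whether the strains differed in response, the question about genetic background that the study asked, was tested with an F test of limma on the same fit. It gave adjusted p = 0.956 for Bcl2l1, 0.960 for Mcl1, 1.0 for Bid and 0.999 for Bak1. Of all tested probes 0% passed, and 798 had an unadjusted p under 0.05.

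By dye orientation, the means of the survival genes changed side and those of the death genes did not. On the arrays with irradiated RNA in Cy5, Bcl2l1 was positive on 9 of 13 and averaged 1.17 ± 1.90 (SD), and on the Cy3 arrays it was positive on 3 of 14 and averaged -0.669 ± 1.15 after turning. Mcl1 was positive on 15 of 19 arrays in Cy5, at 0.815 ± 1.43, and on 6 of 19 in Cy3, at -0.420 ± 0.766. A response keeps its sign after turning, whereas a bias between the dyes does not. Bid averaged -0.112 ± 0.693 in Cy5 and -0.461 ± 0.599 in Cy3, and Bak1 -0.559 ± 1.23 and -0.149 ± 0.658.

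The dye bias, the mean of unturned strain values, was 0.946 ± 0.327 (limma SE) for Bcl2l1, 0.752 ± 0.240 for Mcl1, 0.200 ± 0.144 for Bid and -0.188 ± 0.152 for Bak1. For Bcl2l1 and Mcl1 it was more than 2 times the size of the response, and it was positive in all strains but B6.C for both. Adjusted p-values by limma were 0.128, 0.108, 0.421 and 0.470, and 0% of tested probes were called, with 3518 at an unadjusted p under 0.05. When B6.C was left out, the bias of Bcl2l1 and that of Mcl1 passed the test, together with 1816 probes in all.

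**Figure D3:**
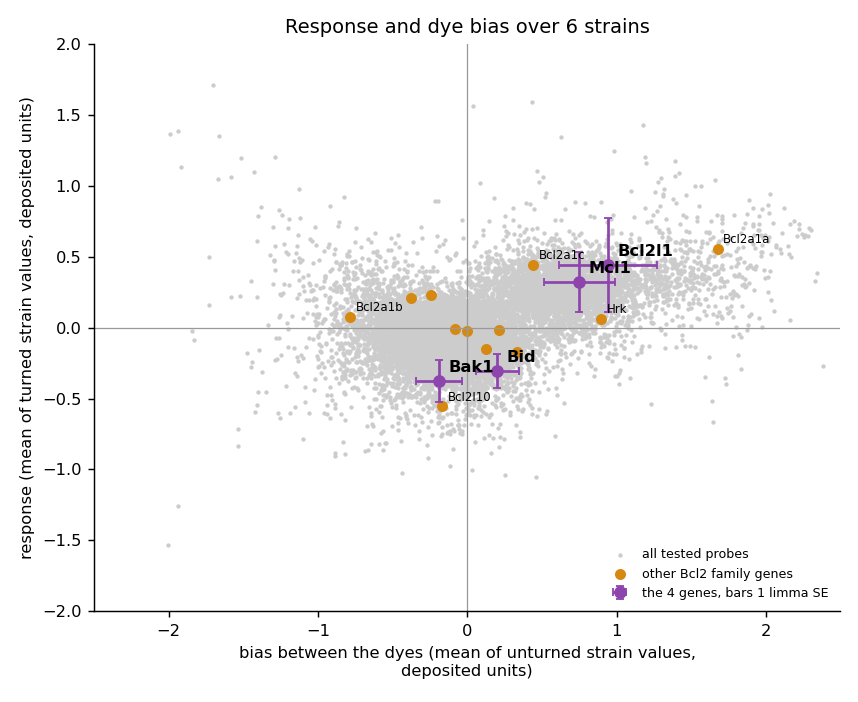
Mean of turned strain values (response, vertical axis) against mean of unturned strain values (bias between the dyes, horizontal axis), both in deposited units, for all tested probes in grey, 12 other Bcl2 family genes in orange and the 4 genes in violet with bars of 1 limma SE. Bcl2l1 and Mcl1 lie further right than up, at 0.946 and 0.752, Bid and Bak1 lie below 0 near the vertical line, and 3 probes lie outside the axes.

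Bcl2l1 and Mcl1 moved together from array to array. Pearson's r was 0.805 and Spearman's rho 0.690 over the 27 arrays that measured both, with the same sign on 19 of them. Within orientations, where the dyes are the same, r was 0.714 over 13 arrays in Cy5 and 0.817 over 14 in Cy3. Without arrays 34 and 36, the farthest from the median of Mcl1, r was 0.665. The other 5 pairs had r from -0.274 to 0.10. For Bid and Bak1, which act in sequence, r was -0.0814 over 34 arrays, and its sign depended on which arrays were used: rho was 0.191, r was -0.196 in Cy5 and 0.361 in Cy3, and without arrays 27 and 53 it was 0.240. For Mcl1 and Bak1 r was -0.274 and rho -0.426 over 34 arrays, with r = -0.0617 in Cy5 and -0.616 in Cy3. These correlations are descriptions, since arrays share mice and a slide's breadth of values.

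**Figure D4:**
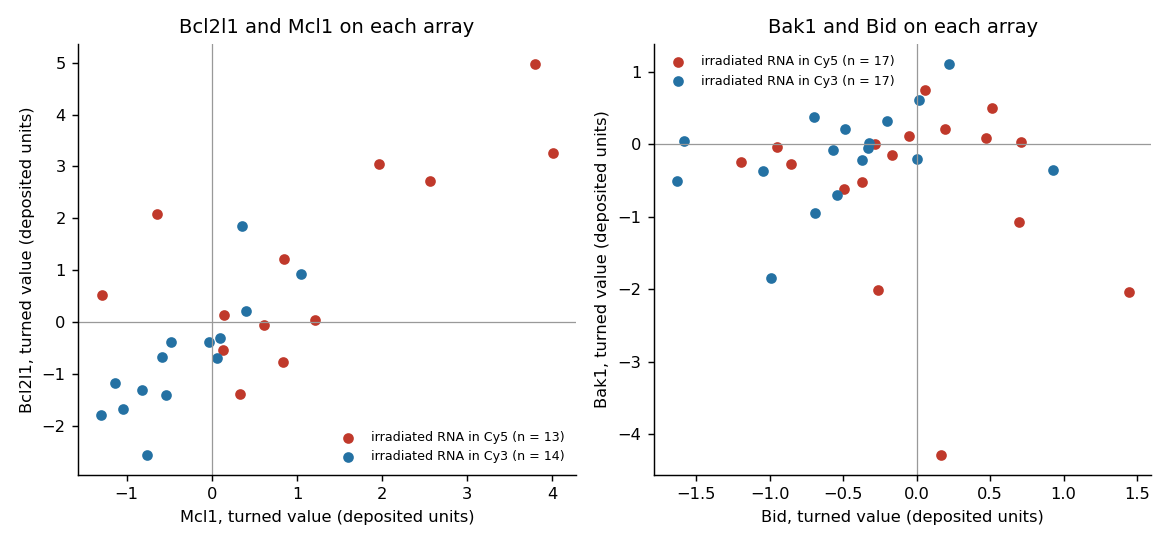
Turned values of Bcl2l1 against Mcl1 (left, 27 arrays) and of Bak1 against Bid (right, 34 arrays), 1 point per array in deposited units, with irradiated RNA in Cy5 in red and in Cy3 in blue. The left panel runs from lower left to upper right (r = 0.805) in both colours, and in the right panel r is -0.0814, with 1 point of Bak1 at -4.29.

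The 4 arrays highest for Mcl1 were also the 4 highest for Bcl2l1, all with irradiated RNA in Cy5: array 34 (DBA/2J), array 36 (BalbxJ) and arrays 11 and 96 (BI6Jx). Arrays 34 and 36 also had wide values, with an SD over probes of 1.66 and 2.07, where the arrays ran from 0.616 to 2.35. Markers of macrophages moved with both genes. Of 8 listed macrophage markers 4 had values (Marco, Lyz2, C1qa and C1qb), and their median correlated with Bcl2l1 at r = 0.808 over 27 arrays and with Mcl1 at r = 0.814 over 38. Within orientations r was 0.731 and 0.820 for Bcl2l1 and 0.751 and 0.813 for Mcl1, and without arrays 34 and 36 it was 0.642 and 0.672.

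The macrophage median itself ran from -0.631 to 3.59 in Cy5 and from -1.55 to 1.12 in Cy3. Its highest values were on arrays 36 and 34, at 3.59 and 2.61. As for both survival genes, its side changed with the dye. In Cy5 it was positive on 14 of 19 arrays, with a median over arrays of 0.503. In Cy3 it was positive on 8 of 19, with a median of -0.448. The dye bias was 0.703 for Marco, 0.761 for C1qa and 0.248 for Lyz2, and C1qb was not tested. By strain the macrophage median was 1.0 in BalbxJ, 0.608 in DBA/2J, 0.426 in BI6Jx, -0.121 in B6.C, -0.180 in A/J and -0.401 in C3H. The 3 strains on its positive side were the 3 highest for both survival genes. These strain values come from the same arrays as the correlations above and are not separate from them. In C3H the median came from only 3 markers. The platelet median, from 3 of 4 listed markers, correlated with Mcl1 at r = 0.696 and with Bcl2l1 at 0.471. Without arrays 36 and 5 these were 0.601 and 0.317. Pf4 had values on only 5 arrays, so on most arrays the platelet median came from 2 genes, Itga2b and Gp9. The erythroid median, from 7 of 10 listed markers, correlated with Mcl1 at r = -0.0196 and with Bcl2l1 at 0.00132. Lymphocyte markers moved with some of the genes too. The median of 7 B cell markers correlated with Bcl2l1 at r = 0.521 over 27 arrays (0.308 in Cy5 and 0.737 in Cy3) and with Mcl1 at 0.284 over 38, and that of 7 T cell markers, of 9 listed, with Bak1 at r = -0.451 over 34 arrays (-0.339 in Cy5 and -0.711 in Cy3). Bak1 ran the other way from the macrophage median as well, at r = -0.461 over 34 arrays, and Bid had an r of 0.0629 over 38. The part of these cells in the values was not tested, and neither was that of a shared dye bias.

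Other genes of the family were looked at by a list of 22, of which 16 had values on the array and 12 were tested. None of the 12 passed over all strains, 6 lay on the positive and 6 on the negative side, and their median was 0.0277, against -0.00675 for all tested probes, of which 48.7% were positive. Among survival genes, Bcl2 itself, the founding member, averaged -0.0182 ± 0.171 (SD, n = 6 strains) and Bcl2l2, which encodes Bcl-w, -0.150 ± 0.192. Bcl2l10, which is not assigned to either side here, had the lowest mean of the 12, -0.553 ± 0.498. It had 0 of 6 strains positive and an adjusted p of 0.567 (limma).

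The Bcl2a1 genes, near-identical copies of the gene for the survival protein A1 of blood cells, may share signal between probes. Bcl2a1a averaged 0.555 ± 0.697 with 5 of 6 strains positive, Bcl2a1c 0.444 ± 0.427 with 6 of 6, Bcl2a1b 0.0764 ± 0.533 and Bcl2a1d -0.0255 ± 0.333. For Bcl2a1a the dye bias was 1.68, larger than that of Bcl2l1, and single arrays ran from -5.95 to 7.46. Bcl2a1b had a dye bias of -0.782, on the other side.

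Among the pore formers related to Bak1, Bax averaged -0.174 ± 0.361, with 2 of 6 strains positive, and Bok 0.230 ± 0.678. Bax and Bak1 were thus both below 0 on average, and the value of Bax was smaller than its spread. Of the BH3-only genes related to Bid, Hrk averaged 0.0626 ± 0.537. Bnip3 and Bnip3l, relatives known for the removal of mitochondria, averaged 0.206 ± 0.154 with 6 of 6 strains positive and -0.00712 ± 0.228. Bcl2l11, Pmaip1, Bad and Bik had values on 6, 34, 19 and 24 arrays, lacked an orientation in at least 1 strain or fell under the minimum, and were not tested. Their medians over arrays were 1.18, 0.0402, -0.219 and -0.328.

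**Figure D5:**
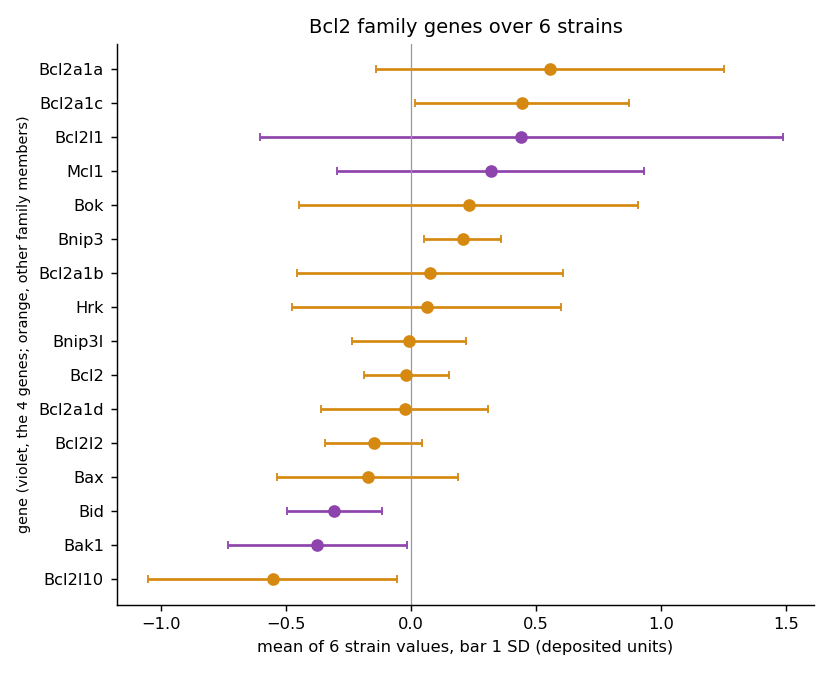
Mean over 6 strains of turned strain values (horizontal axis, deposited units) with bars of 1 SD, for the 4 genes in violet and the 12 other Bcl2 family genes tested in orange, sorted by mean. Bars of 11 of the 16 genes cross 0, and those of Bcl2a1c, Bnip3, Bid, Bak1 and Bcl2l10 do not.

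Of 28 partners and regulators of the 4 proteins, 22 had values and 15 were tested. None passed over all strains, 9 were positive and 6 negative, and the median was 0.0517. The 4 with the smallest p were Mtch2, a receptor for cut Bid at the mitochondrion, at 0.462 ± 0.489 with 5 of 6 strains positive, Bcap31, which is cut by caspase-8, at -0.634 ± 0.947 with 0 of 6, Cycs, the cytochrome c that Bak1 pores release, at 0.196 ± 0.304, and Htra2, another protein of the space between the mitochondrial membranes, at -0.238 ± 0.449. Their unadjusted p-values by limma were 0.0294, 0.0658, 0.185 and 0.193, and the adjusted p was 0.567 or above in each.

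The genes whose values were most like each member over arrays are given with Pearson's r, among named genes with at least 30 arrays in common. For Mcl1 they were Slc20a1, a phosphate carrier (r = 0.950 over 38 arrays), Rxra, a retinoid X receptor (0.943 over 37) and Ppp2r3d (0.930 over 37), and the least like was Abcg5 (-0.662 over 30), among 3879 genes with a median r of -0.0514. For Bak1 they were Rbm3, a cold-induced RNA-binding protein (0.894), Cr1l (0.869) and S100a6 (0.849), each over 34 arrays, and the least like was Dazap2 (-0.676 over 31). For Bid they were Mettl6 (0.794 over 38), Gpr19 (0.749 over 34) and Mia (0.691 over 36), and the least like was Spint1 (-0.510 over 30).

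Within each orientation, r stayed at 0.655 or above for all 9 of these most like genes. Bcl2l1 had too few arrays for that minimum. With the minimum set to 27 after its values were seen, the most like were Acadl (0.942), Clk4 (0.940) and Dkk3 (0.924) and the least like Saa3 (-0.791), among 947 genes.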

How the data were processed

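Spleen RNA of irradiated and sham-exposed male mice was compared on 38 two-colour arrays. Per the study's methods, the authors removed poor and low spots, subtracted local background and applied Lowess within arrays. They deposited 1 table with a signed score per spot and array. No source used here says whether the deposited score is that normalized value, on what scale it stands or which dye is over which. Precision is limited by how many arrays there are.

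Control spots (1235 of 23232) were left out, spots of a probe averaged, and probes named through RefSeq accessions (GRCm38.p6). Arrays were centred on their medians. A probe was tested if it had a value on 19 arrays or more, with each strain measured in both orientations. limma 3.58.1 in R 4.3.3 (lmFit, eBayes, Benjamini-Hochberg, adjusted p under 0.05) tested 6 strain values against 0, each strain's response over 38 arrays, differences between strains and the dye bias. The code was tested on simulated data. P-values over strains measure the spread between strains. The 4 genes and the gene lists were chosen with earlier results of these data known. Named genes were the 4 members, every measured gene of the family list, the 4 partners with the smallest p, and per member the 3 most and 1 least correlated genes. Other centring, scaling, filters, spread estimates, dye terms, single orientations and the leaving out of arrays and strains were tried. Promoters were read from the RefSeq table.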

Additional observations from a re-analysis of the deposited data

Results flagged for a closer look

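In 21 groups of 4 to 10 arrays of 1 gene in 1 strain, 3 had an array far from the others by Dixon's criterion. For normally distributed values the criterion flags about 1 in 20 groups. How many groups it flags among all probes was not counted, so the 3 cannot be called many or few. Mcl1 in BalbxJ was 3.79 on array 36, against 1.06 on the nearest of the other arrays. Bid in BalbxJ was -1.09 on array 5, against -0.652 on the nearest, with all 8 values on the same side. Bak1 in C3H was -4.29 on array 27, against -0.362 on the nearest of the other 4. The SD over probes was 2.07 on array 36, 0.894 on array 5 and 2.32 on array 27.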

How the results depend on the processing

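Under every alternative run, 0 of the genes that had a value passed, over all strains or within strains. Bid and Bak1 kept their negative mean over strains in all of these. With Cy3 arrays alone, Bcl2l1 turned to -0.505 and Mcl1 to -0.432. Without array centring, 31 probes were called over strains against 0. Leaving out B6.C raised dye bias calls from 0 to 1816 probes and to 2 of the 4 genes (Bcl2l1 at 1.22, adjusted p = 0.0401, and Mcl1 at 0.954, adjusted p = 0.0323, limma), and leaving out C3H to 2057 probes. The cause was not tested.

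Counts of all probes called within strains moved with the setting. Without centring they were 0 in B6.C, 2 in BI6Jx and 0 in C3H. With arrays scaled they were 108 in B6.C, 1 in BalbxJ, 2 in BI6Jx and 1 in C3H. With arrays 50, 53 and 97 turned they were 0 in B6.C and 0 in BI6Jx, and with these left out 17 and 0. With a dye term for each strain they were 48 in B6.C, 2 in BalbxJ, 27 in BI6Jx and 361 in C3H. The main counts were 27, 0, 5 and 74 in that order. For a difference between strains, 0 probes became 112 with that dye term and 602 over Cy5 arrays alone. Without 1 array at a time, counts ran from 9 (array 47) to 48 (array 52) in B6.C, 0 to 3 (array 84) in BalbxJ, 0 (array 11 or 97) to 19 (array 95) in BI6Jx and 10 (array 95) to 448 (array 25) in C3H.

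Single strain values changed side as follows. Without centring, Bcl2l1 (-0.301) and Mcl1 (-0.316) in BalbxJ, Bid in B6.C (0.731) and DBA/2J (0.461), and Bak1 in B6.C (0.297) and DBA/2J (0.452) did. With scaling, Mcl1 in B6.C (-0.0925) and Bid in A/J (0.0459) did. With the 3 unsettled arrays turned, Bcl2l1 (-0.212), Mcl1 (-0.172) and Bak1 (0.0383) in B6.C and Bak1 in BI6Jx (0.474) did, and with them left out Mcl1 in B6.C (-0.0676) and Bak1 in BI6Jx (0.0930). Without 1 array at a time, ranges crossed 0 for Mcl1 in C3H (-0.223 to 0.0410), BalbxJ (-0.0436 to 0.610) and B6.C (-0.164 to 0.363), Bcl2l1 in BalbxJ (-0.0990 to 0.935) and B6.C (-0.101 to 0.760), Bid in DBA/2J (-0.545 to 0.139) and A/J (-0.257 to 0.112), and Bak1 in BI6Jx (-0.672 to 0.102). Bcl2l1 gave no value with a minimum of 30 arrays, with the 3 unsettled arrays left out, or without array 34, 70, 85 or 97, since it then failed the filter on values, and its ranges cover the other 34 arrays. Over strains, leaving out 1 array at a time gave 0.190 to 0.449 for Mcl1 and 0.348 to 0.505 for Bcl2l1.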
